A study of Homo sapiens with 2 samples.

Results

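The genes described here are 42 human genes of the NRF2 antioxidant programme: the transcription factor gene NFE2L2 and its inhibitor gene KEAP1, enzymes of glutathione and thioredoxin metabolism, sources of NADPH, haem and iron proteins, aldo-keto reductases, and enzymes that remove superoxide and hydrogen peroxide. They were chosen by name, and a probe set of the array was taken as a member's when the platform annotation gave it exactly 1 gene symbol and that symbol was on the list. This gave 81 probe sets for 39 of the 42 genes, out of 19775 genes with such a probe set. PRDX5, FTH1 and AKR1B1 had none and were not analysed here. The data came from CL1-5, an established, highly invasive human lung adenocarcinoma cell line, hybridised to Affymetrix U133 Plus 2.0 arrays. One sample was exposed for 24 h to 0.11 µM analogue 3, which is derived from the plant product desmosdumotin C and carries iodo, methoxy and 3 propyl groups. The other had DMSO, a solvent, for the same 24 h. According to the submitters, this dose is the ED50 of the compound in CL1-5. Each group is a single array, so the differences below are unreplicated and carry no p-values. In bulk RNA, fewer cells of a kind and less RNA per cell cannot be told apart.

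NRF2, the product of NFE2L2, is normally bound by KEAP1, which hands it to a ubiquitin ligase for destruction. Oxidants and electrophiles modify cysteines of KEAP1, NRF2 then builds up, pairs with small MAF proteins, and binds the antioxidant response element in the promoters of its target genes. The targets make glutathione and thioredoxin, regenerate both with NADPH, and detoxify quinones, peroxides, haem and aldehydes. In lung adenocarcinoma, mutations of KEAP1 or NFE2L2 can hold the programme on without a stimulus. Most of this control acts on NRF2 protein, which an mRNA array does not measure.

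Of the epithelial markers, KRT18 and KRT8 were present and the others were low, while the mesenchymal marker VIM was bright. In multiples of the array median, KRT18 read 458 with analogue 3 and 461 with DMSO, KRT8 read 77.8 and 42.3, and VIM read 1868 and 1883. The epithelial genes EPCAM and CDH1 were below 1 on both arrays, and KRT19 read 5.23 with analogue 3 and 2.24 with DMSO. None of 16 markers of lung secretory cells, leukocytes, fibroblasts, endothelium and red cells reached 32 times the array median on either array, and the highest was the endothelial PECAM1 at 15.7 with analogue 3 and 11.4 with DMSO.

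Most of the programme differed little between the arrays. Its transcription factor gene NFE2L2 and its haem-degrading target HMOX1 were lower with analogue 3, by 1.74-fold and 1.87-fold. The glutathione reductase gene GSR and the mitochondrial peroxiredoxin gene PRDX3 were higher, by 1.70-fold and 1.65-fold. NQO1, GCLM and TXNRD1, often used as readouts of NRF2, differed by at most 1.11-fold in their brightest probe sets.

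A gene was represented by its brightest single-gene probe set, values under 32 times the array median (log2 5) were raised to that floor, and genes that reached it on 1 array or both are called measured. Of the 39 members with a probe set, 32 were measured, 29 of them on both arrays, and 7 lay under the floor on both. After flooring, no member was 2-fold higher and none was 2-fold lower. The floor caps SOD2, which read 16.2 with analogue 3 and 39.9 with DMSO and was past 2-fold lower with lower floors. Across all 5050 measured genes, 3.47% were at least 2-fold higher and 2.67% at least 2-fold lower. For 32 genes that background comes to about 1 gene in each direction, so these counts of 0 set nothing apart. At 1.5-fold, 2 members were higher and 2 lower, against 9.45% higher and 9.13% lower across all measured genes. Together these 4 are 12.5% of the measured members, where 18.6% of all measured genes passed 1.5-fold.

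The members' log2 differences, analogue 3 minus DMSO, had a median of 0.10 with quartiles of -0.20 and 0.18, beside a median of -0.01 and quartiles of -0.28 and 0.26 over all measured genes. Over the 29 members at the floor on both arrays the median was 0.13, beside 0.00 for all such genes. Members were often brighter than other measured genes, as 22 of 32 reached log2 7, beside 1933 of 5050 genes. With a floor of log2 7 the medians were 0.10 for members and 0.05 for all genes. After removal of a loess trend they were 0.04 and -0.01. How far the members' lean goes with brightness was not tested. The difference was above 0 in 21 members (65.6%) and below 0 in 11, beside 48.4% above 0 over all measured genes. For NQO1, GPX1, GSS and MGST3 the sign turned under at least 1 of 3 other scalings of the arrays. The median size of a member's difference, regardless of sign, was 0.19 on the log2 scale, beside 0.27 for all measured genes.

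**Figure D1:**
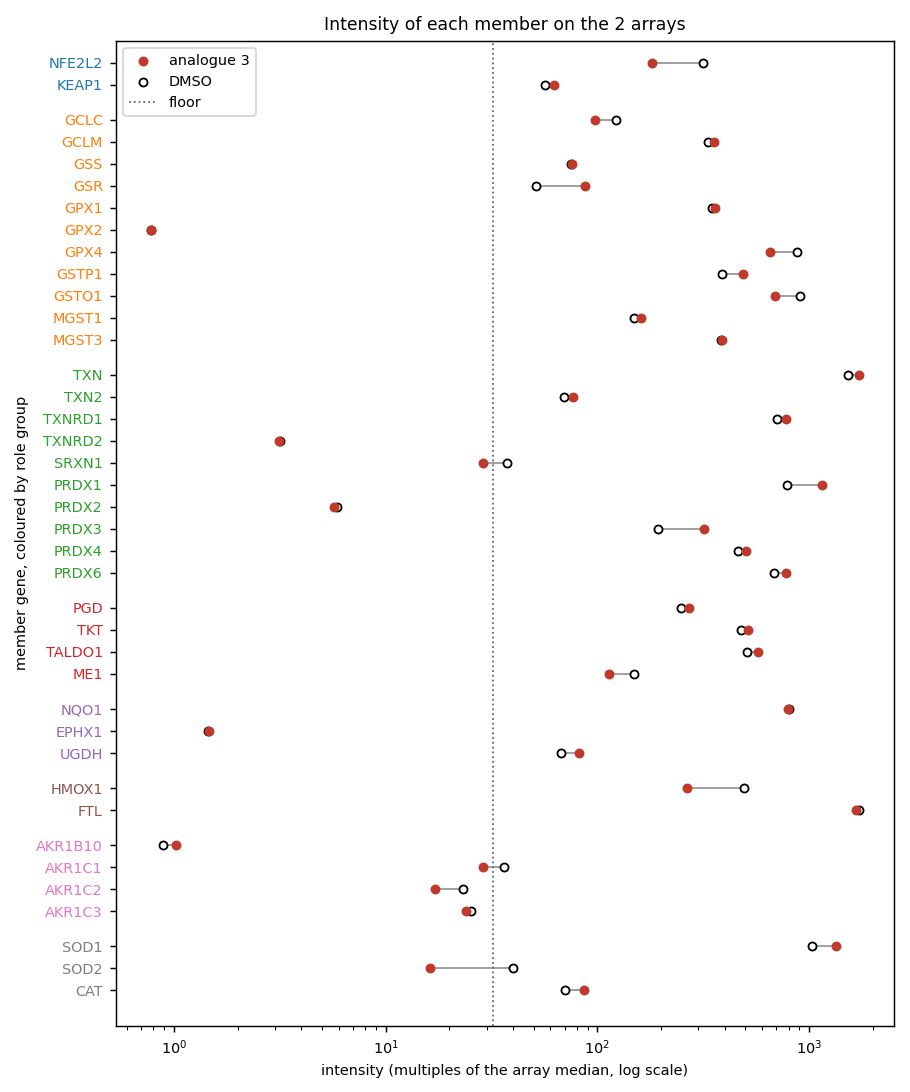
Intensity of each member's brightest probe set on the analogue 3 array (filled) and the DMSO array (open), in multiples of the array median on a log axis, with the floor of 32 as a dotted line and gene names coloured by role. Most pairs of points lie close together, while NFE2L2, HMOX1 and SOD2 lie left of their DMSO values and GSR and PRDX3 lie right of theirs; levels of different genes come from different probes and are not comparable.

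The spread between probe sets of 1 gene is the technical error these arrays can show. Over 1127 genes with at least 2 probe sets at the floor on both arrays, the SD of 1 probe set's log2 difference was 0.17, which leaves out culture, RNA and hybridisation error. Of the measured members, 9 (28.1%) differed by more than double this value, or 0.35, beside 39.7% of all measured genes (19.3% higher and 20.4% lower). Passing this value thus sets no member apart, and it says nothing of the error between separate samples. The 9 were GSR, PRDX3, PRDX1 and SOD1 on the higher side and HMOX1, NFE2L2, GPX4, ME1 and GSTO1 on the lower. In 10 of 11 members with at least 2 such probe sets, the brightest and the next had the same sign, and GCLM was the exception. The same held for 944 of the 1127 genes (83.8%). Of all 81 member probe sets, 47 were measured, 2 of them at least 1.5-fold higher and 3 at least 1.5-fold lower, which is 10.6% together. Of all 6968 measured single-gene probe sets, 9.73% were at least 1.5-fold higher and 8.58% at least 1.5-fold lower.

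**Figure D2:**
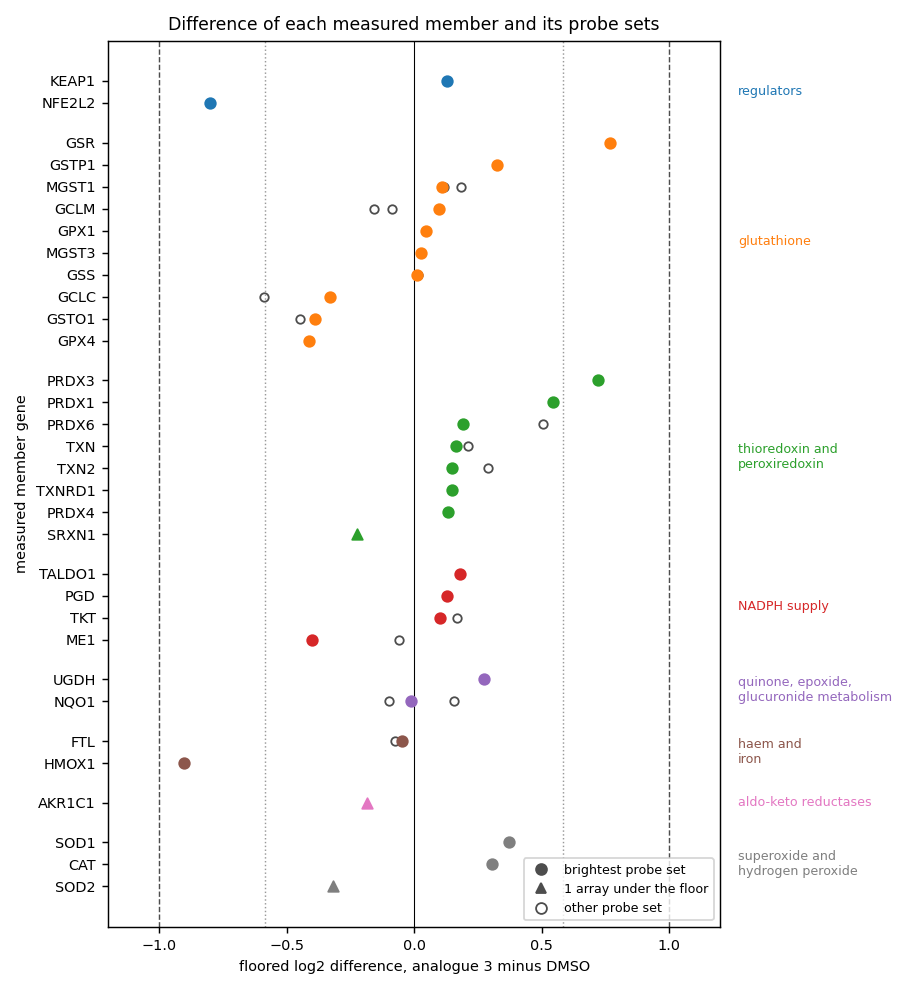
Floored log2 difference, analogue 3 minus DMSO, of the 32 measured members by role group; filled circles are brightest probe sets, triangles are genes with 1 array under the floor, open circles are other measured probe sets, and dotted and dashed lines mark 1.5-fold and 2-fold. No point lies beyond the 2-fold lines, GSR (0.77) and PRDX3 (0.72) lie highest, and HMOX1 (-0.90) and NFE2L2 (-0.80) lie lowest.

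The regulators stood apart from each other. NFE2L2 read 182 with analogue 3 and 317 with DMSO, a log2 difference of -0.80. This was the second lowest value among the members. Its other single-gene probe sets lay under the floor, 1 at 16.9 with analogue 3 and 20.7 with DMSO and the other at 0.921 and 0.949. KEAP1, the adaptor that targets NRF2 for destruction, read 62.2 with analogue 3 and 56.8 with DMSO (log2 0.13), within double the probe-set SD.

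Genes that NRF2 works with or competes with were lower in part. Of 13 such genes (small MAF partners, related factors, BACH repressors and the ubiquitin machinery), 9 were measured, 2 were at least 2-fold lower and none was 2-fold higher. Over all measured genes 2.67% were at least 2-fold lower. The median of the 9 was -0.41, with 4 genes above 0. It stayed below 0 under all 10 alternatives, from -0.56 to -0.17. The alternatives rescore the same 2 arrays, and the list was chosen with earlier results of these data known, so the constant sign adds no support. MAFF, a small MAF partner that is itself stress-inducible, read 148 with analogue 3 and 309 with DMSO, 2.08-fold lower. SQSTM1, the autophagy receptor that binds KEAP1 and is also an NRF2 target, read 116 with analogue 3 and 244 with DMSO, 2.10-fold lower. BACH1, the haem-sensing repressor of HMOX1, read 20.3 with analogue 3, under the floor, and 42.6 with DMSO, at least 1.33-fold lower. The related factor gene NFE2L1, which drives proteasome genes, read 94.9 with analogue 3 and 174 with DMSO, 1.83-fold lower. CUL3, the ligase scaffold used by KEAP1, differed by 0.09, and RBX1, its RING partner, by 0.56. BACH1, NFE2L1, CUL3 and RBX1 were picked with their values in view.

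The sequences that link NRF2 to its targets are short. The antioxidant response element was searched as TGACNNNGC on both strands of RefSeq promoters (GRCh38.p14, 250 bases before to 50 after each start site). Promoters were listed for 33 of the 42 members, and 10 of the 33 held the element (30.3%), beside 16.1% of all 27305 genes with a listed promoter. Members often have several start sites, and 11 of their 50 promoters held it (22%), beside 13.3% of all promoters. A match is a description of the letters, not of binding, and known elements that lie further upstream are outside this window. The 5 stretches below are shown because they come from members measured on both arrays and cover synthesis (GCLM), thioredoxin reduction (TXNRD1), conjugation (GSTP1), NADPH (ME1) and the inhibitor itself (KEAP1). Each is written 5′ to 3′ on the gene's own strand, with the 9 matched bases in capitals and 30 bases on either side. KEAP1, ME1 and TXNRD1 hold further matches that are not shown in capitals. In GCLM and KEAP1 the element shown lies on the opposite strand, where it reads TGACTAAGC in both genes.
GCLM, chr1:93909426-93909494, minus strand: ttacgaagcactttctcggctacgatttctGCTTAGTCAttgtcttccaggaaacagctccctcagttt
KEAP1, chr19:10502764-10502832, minus strand: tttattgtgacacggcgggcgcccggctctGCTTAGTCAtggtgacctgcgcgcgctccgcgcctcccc
GSTP1, chr11:67583716-67583784, plus strand: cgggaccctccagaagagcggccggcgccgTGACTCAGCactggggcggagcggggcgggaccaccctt
ME1, chr6:83431150-83431218, minus strand: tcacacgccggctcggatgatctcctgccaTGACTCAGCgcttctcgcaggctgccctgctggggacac
TXNRD1, chr12:104215650-104215718, plus strand: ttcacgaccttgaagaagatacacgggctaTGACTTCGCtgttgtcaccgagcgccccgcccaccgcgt

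GSTP1 and ME1 share the exact form TGACTCAGC, which 0.689% of all genes with a listed promoter hold. The signs of these genes were opposite, as GSTP1 was 1.25-fold higher with analogue 3 and ME1 was 1.32-fold lower. Of the 10 members with the element, 8 were measured, with a median log2 difference of 0.12 and a range of -0.40 to 0.33. Of the 23 listed members without it, 17 were measured, with a median of 0.03 and a range of -0.80 to 0.72. The 2 ranges overlap. None of the 8 members with the element passed 1.5-fold, beside 11.8% of the 17 without it and 18.6% of all measured genes. With 8 genes, this count of 0 sets nothing apart. NFE2L2 is in the second group, and HMOX1 and GSR in neither, since no promoter of theirs was used.

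Glutathione is built in a pair of steps, and the first, the joining of glutamate and cysteine, sets the rate. Its catalytic subunit gene GCLC read 97.3 with analogue 3 and 122 with DMSO, a log2 difference of -0.33. A dimmer probe set of the gene read 32.8 with analogue 3 and 49.3 with DMSO, a difference of -0.59. Both lay on the lower side, the second just past 1.5-fold. The modifier subunit gene GCLM read 356 with analogue 3 and 333 with DMSO (log2 0.10), and its other probe sets differed by -0.16 and -0.09, so its sign depended on the probe set. GSS, which adds glycine, read 75.8 with analogue 3 and 75.2 with DMSO. The catalytic subunit was thus the only 1 of these 3 genes with all its measured probe sets lower.

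GSR, which returns oxidised glutathione to its reduced form with NADPH, had the highest difference of the members. It read 87.7 with analogue 3 and 51.5 with DMSO, a log2 difference of 0.77. A dimmer probe set under the floor read 15.3 with analogue 3 and 10.0 with DMSO, also higher. With the median of its probe sets in place of the brightest, the floored difference was 0.20. The dimmer probe set pulls the DMSO level under the floor there, and before flooring the 2 probe sets differed by 0.77 and 0.62.

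The peroxidase and transferase genes that spend glutathione went both ways. GPX4, which reduces lipid peroxides in membranes, read 657 with analogue 3 and 874 with DMSO (log2 -0.41). GPX1, the main cytosolic glutathione peroxidase, read 358 with analogue 3 and 347 with DMSO, and GPX2, known from gut epithelium, lay at or under the array median on both arrays. Among the transferases, GSTO1, of the omega class, read 688 with analogue 3 and 900.2 with DMSO (log2 -0.39), and a further probe set differed by -0.45. GSTP1, which conjugates electrophiles and is abundant in many carcinomas, read 487 with analogue 3 and 388 with DMSO (log2 0.33). The microsomal genes MGST1 and MGST3 differed by 0.11 and 0.03, and the 3 measured probe sets of MGST1 lay between 0.11 and 0.18. Over the 10 measured genes of the glutathione group the median was 0.04, with 1 gene at least 1.5-fold higher and none lower. Beside 9.45% higher and 9.13% lower over all measured genes, these counts set nothing apart. The group median turned to -0.01 after removal of a loess trend.

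A separate list holds genes that bring in the building blocks of glutathione or break it down. Of its 13 genes, 7 were measured, 5 of them on 1 array only, 2 were at least 2-fold lower and 1 was 2-fold higher. Over all measured genes 2.67% were at least 2-fold lower and 3.47% at least 2-fold higher. This list too was chosen with earlier results of these data known. SLC7A11, the cystine importer and an NRF2 and ATF4 target, read 24.5 with analogue 3, under the floor, and 86.3 with DMSO, at least 2.70-fold lower. Its partner chain SLC3A2 read 38.4 with analogue 3 and 126 with DMSO, 3.29-fold lower. CHAC2, which cleaves glutathione slowly, read 69.4 with analogue 3 and 31.4 with DMSO, just under the floor, at least 2.17-fold higher. Its relative CHAC1 went the other way, at 3.48 with analogue 3 and 22.7 with DMSO. CHAC1 lay under the floor on both arrays, so it is not counted, and it was picked with its value in view. The transsulfuration gene CBS, which supplies cysteine, read 4.74 with analogue 3 and 42.5 with DMSO, at least 1.33-fold lower against the floor, and was picked with its value in view. The median of the 7 was -0.41. It was -1.29, -1.28 and -1.06 with floors of log2 1, 3 and 4, -1.29 with none, and 0.32 with a floor of log2 7, which left 1 gene. Of the 23 other glutathione enzymes, 11 were measured, with a median of -0.20. GLRX, a glutaredoxin that removes glutathione from protein cysteines, was the only 1 past 2-fold, at 69.5 with analogue 3 and 145 with DMSO, 2.09-fold lower.

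**Figure D3:**
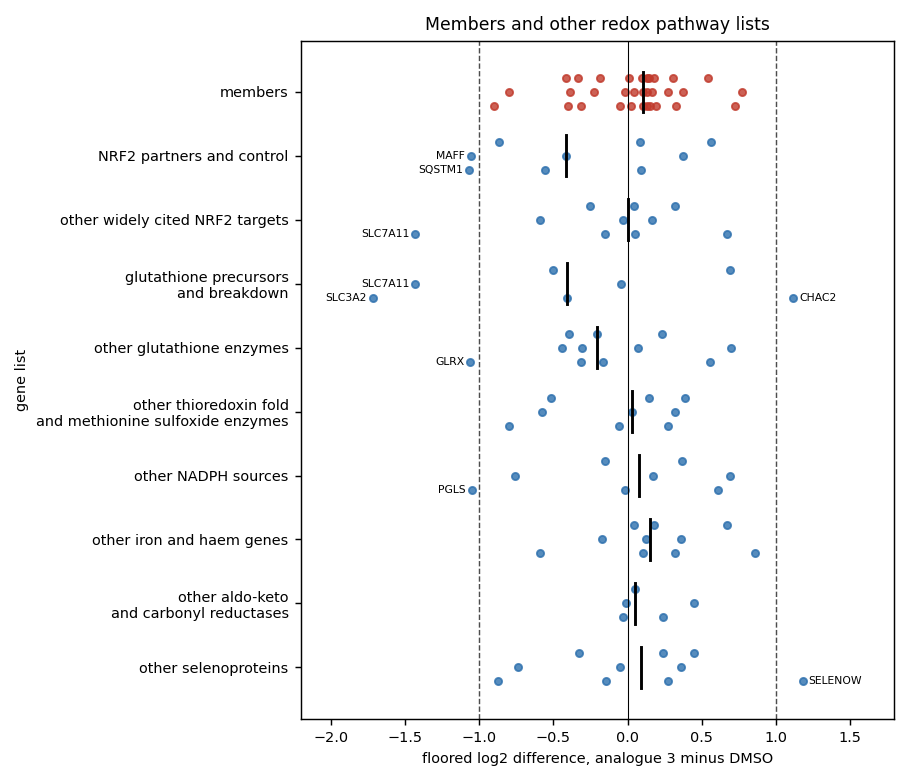
Floored log2 difference, analogue 3 minus DMSO, of the measured members (red) and of the measured genes of 9 other redox lists (blue); each point is a gene, black bars are list medians, dashed lines mark 2-fold and genes past 2-fold are named. The members lie inside the 2-fold lines, while SLC3A2, SLC7A11, SQSTM1, MAFF, GLRX and PGLS lie below them and CHAC2 and SELENOW above; SLC7A11 and some others belong to more than 1 list.

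The thioredoxin group lay mostly on the higher side. Of its 11 members, 8 were measured, 7 of them above 0 (87.5%), beside 48.4% above 0 over all measured genes. The median log2 difference was 0.16 and stayed above 0 under all alternatives, from 0.10 to 0.28. The alternatives rescore the same 2 arrays, so the constant sign adds no support. The lowest value, 0.10, came with removal of a loess trend. Only PRDX3 and PRDX1 differed by more than double the probe-set SD in their brightest probe sets, so most of these differences were small. PRDX3, the peroxiredoxin of mitochondria, read 318 with analogue 3 and 193 with DMSO (log2 0.72), while its other probe set was under 1 on both arrays. PRDX1, an abundant cytosolic peroxiredoxin and NRF2 target, read 1145 with analogue 3 and 784 with DMSO, 1.46-fold higher. PRDX6, which uses glutathione and not thioredoxin as its reductant, differed by 0.19 in its brightest probe set and by 0.50 in the other. PRDX4, of the secretory pathway, differed by 0.13.

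The carriers and reductases that serve these enzymes include thioredoxins and their reductases. TXN, cytosolic thioredoxin, read 1717 with analogue 3 and 1533 with DMSO (log2 0.16). Its selenium-containing reductase gene TXNRD1, a standard NRF2 target, read 779.6 with analogue 3 and 704 with DMSO (log2 0.15). TXN2, the mitochondrial thioredoxin, differed by 0.15 and 0.29 in its 2 probe sets. SRXN1, sulfiredoxin, which repairs overoxidised peroxiredoxins and is a sensitive NRF2 target, was the only measured gene of the group below 0, at 28.9 with analogue 3, under the floor, and 37.4 with DMSO, at least 1.17-fold lower. TXNRD2 and PRDX2 were under the floor on both arrays, with readings of 3.14 and 5.74 with analogue 3 and 3.18 and 5.88 with DMSO in their brightest probe sets. In the list of other thioredoxin fold and methionine sulfoxide enzymes, 9 of 16 genes were measured, 3 of them on 1 array only. None passed 2-fold after flooring, beside 3.47% higher and 2.67% lower over all measured genes. The floor caps SESN2, which read 6.47 with analogue 3 and 47.8 with DMSO, at least 1.49-fold lower. SESN2 was picked with its value in view, and 5 of the 9 were above 0. The list median of 0.03 was -0.01 after quantile normalization and without probe sets ending in _s_at or _x_at. It was also below 0 after removal of a loess trend.

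Genes of NADPH supply were close to level except ME1. PGD, the second NADPH-producing step of the pentose phosphate pathway, read 271 with analogue 3 and 248 with DMSO (log2 0.13). TKT and TALDO1, which recycle its sugars, differed by 0.10 and 0.18, and a second TKT probe set by 0.17. ME1, cytosolic malic enzyme, read 113 with analogue 3 and 149 with DMSO, a log2 difference of -0.40. Its other measured probe set read 56.2 with analogue 3 and 58.5 with DMSO, a difference of -0.06, so the lower value rested on 1 probe set. None of the 4 passed 1.5-fold, beside 18.6% of all measured genes, and their median was 0.12. Of the 14 other NADPH genes, 8 were measured, with a median of 0.08 that ran from -0.02 to 0.11 over the alternatives. PGLS, the step between glucose 6-phosphate dehydrogenase and PGD, was the only 1 past 2-fold, at 40.5 with analogue 3 and 83.8 with DMSO, 2.07-fold lower. Over all measured genes 2.67% were at least 2-fold lower.

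The haem and iron members differed from each other. HMOX1, which opens the haem ring and frees iron, read 264 with analogue 3 and 493 with DMSO, a log2 difference of -0.90. This was the largest floored difference of any measured member. HMOX1 has 1 probe set, bright on both arrays, so the other floors and probe-set choices could not move it. The 3 other scalings of the same 2 arrays gave values between -0.97 and -0.89, so the narrow range adds no support. FTL, the ferritin light chain that stores iron, read 1662 with analogue 3 and 1719 with DMSO in 1 probe set and 1578 and 1664 in the other, differences of -0.05 and -0.08. Ferritin genes have processed pseudogenes, and both FTL probe sets end in _x_at, so their values are uncertain between copies. Of 16 other iron and haem genes, 10 were measured and none passed 2-fold. Over all measured genes 3.47% were at least 2-fold higher and 2.67% at least 2-fold lower. The list median of 0.15 stayed above 0 under all alternatives, which rescore the same 2 arrays and so add no support. In that list BLVRB, a biliverdin reductase, read 181 with analogue 3 and 272 with DMSO, a log2 difference of -0.59. BLVRA, the other biliverdin reductase gene, went the other way, at 160 with analogue 3 and 128 with DMSO, a difference of 0.32. CPOX, a haem synthesis enzyme, read 122 with analogue 3 and 67.0 with DMSO, 1.82-fold higher. BLVRB, BLVRA and CPOX were picked with their values in view.

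NQO1, which reduces quinones by a pair of electrons and is the classic NRF2 target, hardly differed. It read 795 with analogue 3 and 802 with DMSO, a log2 difference of -0.01, and its other probe sets differed by 0.16 and -0.10. The 3 probe sets thus straddled 0, within the probe-set SD. UGDH, which makes the sugar donor for glucuronidation, read 81.8 with analogue 3 and 67.5 with DMSO (log2 0.28). EPHX1, microsomal epoxide hydrolase, read 1.46 on both arrays, far under the floor.

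The aldo-keto reductase genes, whose high expression marks lung cancers with an active NRF2 programme, were dim here. AKR1B10, which reduces aldehydes and retinal, read 1.02 with analogue 3 and 0.890 with DMSO, close to the array median. AKR1C1 was the only 1 of the group to reach the floor, at 28.8 with analogue 3, under it, and 36.4 with DMSO, at least 1.14-fold lower. AKR1C2 and AKR1C3 read 17.0 and 23.9 with analogue 3 and 23.3 and 25.3 with DMSO. The AKR1C genes are near-identical, and the brightest AKR1C1 and AKR1C2 probe sets end in _x_at, so these values are uncertain between family members. Of 12 other aldo-keto and carbonyl reductases, 5 were measured, with differences from -0.03 to 0.45. None passed 1.5-fold, beside 18.6% of all measured genes.

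The enzymes that remove superoxide and hydrogen peroxide split by gene. SOD1, the copper and zinc superoxide dismutase of the cytosol, read 1336 with analogue 3 and 1033 with DMSO (log2 0.37). CAT, peroxisomal catalase, read 86.5 with analogue 3 and 70.0 with DMSO (log2 0.31), and a dimmer probe set read 13.1 with analogue 3 and 10.5 with DMSO. SOD2, the mitochondrial manganese enzyme and a target of inflammatory signalling, read 16.2 with analogue 3, under the floor, and 39.9 with DMSO. Against the floor it was at least 1.25-fold lower. Outside the single-gene rule, a pair of probe sets annotated to both SOD2 and SOD2-OT1 reached the floor on both arrays. One read 42.5 with analogue 3 and 107 with DMSO, 2.51-fold lower, and the other read 39.3 with analogue 3 and 78.6 with DMSO, 2.00-fold lower. With the floor lowered to log2 4 or below, or with none, the log2 difference of the single-gene probe set was -1.30, which made SOD2 the only member past 2-fold under any setting of the floor.

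The plot of cumulative shares sets the size of the members' differences beside that of the other genes. No test of this contrast was made. Of 21 further genes that are widely cited as NRF2 targets, 10 were measured, SLC7A11 alone was 2-fold lower and none was 2-fold higher. Over all measured genes 2.67% were at least 2-fold lower and 3.47% at least 2-fold higher, so with 10 genes these counts set nothing apart. At 1.5-fold, 1 was higher and 2 lower, beside 9.45% and 9.13% of all measured genes. This list too was chosen with earlier results of these data known. The median of the 10 was 0.01, and ran from -0.20 to 0.05 over the alternatives.

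**Figure D4:**
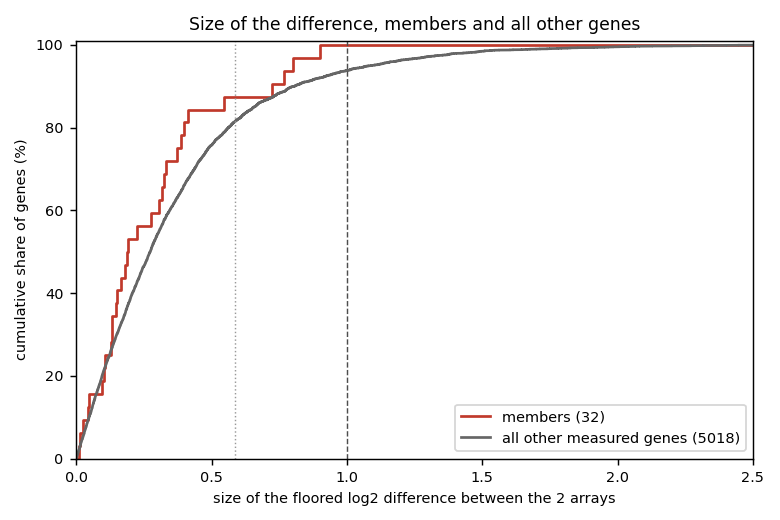
Cumulative share of genes (%) by the size of the floored log2 difference between the 2 arrays, regardless of sign, for the 32 measured members (red) and the 5018 other measured genes (grey); dotted and dashed lines mark 1.5-fold and 2-fold. The members' curve ends at HMOX1 (-0.90 with its sign), before the 2-fold line, and the median size is 0.19 for members and 0.27 for the other genes.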

How the data were processed

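The intensity values the authors deposited are on a linear scale, 1 per probe set and array for 54675 probe sets. GCRMA is the method in the submitters' processing notes; no source used here gives its version. Both array medians were 1, so values are taken as multiples of the median. Symbols came from the platform annotation of GEO and were checked by gene number against RefSeq, which changed 0 of them. The 42 members and all gene lists were chosen with earlier results of these data known. Log2 values were floored at log2 5, which 13.1% of probe sets reached with analogue 3 and 13.4% with DMSO, and differenced as analogue 3 minus DMSO. Affymetrix control probe sets were left out. Members were named in full if they were regulators, passed 1.5-fold or stood on a list of well-known targets, and genes of other lists if they passed 2-fold. Alternatives were floors of log2 1, 3, 4 and 7 or none, median centring, loess removal (span 0.3), quantile normalization, the median probe set, omission of _s_at and _x_at probe sets, and thresholds of 1.5-fold and 3-fold. Scripts used Python 3.11.15, pandas 2.3.3 and statsmodels 0.14.6 and were tested on simulated data. Precision is limited by the 2 arrays.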

Additional observations from a re-analysis of the deposited data

How the results depend on the processing

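No paired analysis was possible because each group has 1 array and no test was made, and for the same reason no replicate could be left out. The count of members at least 2-fold higher was 0 and at least 2-fold lower was 0. With floors of log2 1, 3 and 4 and with no floor, 1 member, SOD2, was at least 2-fold lower, and with a threshold of 1.5-fold 2 were higher and 2 lower. With a threshold of 3-fold, a floor of log2 7 and each other alternative both counts were 0. Some alternatives scored fewer members than the 32 of the main setting. The number was 22 with a floor of log2 7, 25 with the median probe set and 23 without _s_at and _x_at probe sets. The members' median log2 difference ran from 0.04 to 0.13. Among single genes, GCLC moved to -0.59 with the median probe set and without _s_at and _x_at probe sets. With the median probe set GCLM moved to -0.16 and GSR to 0.20, no longer past 1.5-fold. The GSR value is held down by the floor, as both its probe sets were higher before flooring. SOD2 moved to -1.30 with the lower floors and with none. The floor, at 32 times the array median, hides differences of dim genes.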

Other observations

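Selenoprotein genes, whose products include the TXNRD1 and GPX4 enzymes, were read as a separate list of 15 genes, of which 10 were measured, with a median log2 difference of 0.09 that ran from -0.10 to 0.24 over the alternatives. SELENOW, a small redox protein of the cytosol, read 134 with analogue 3 and 58.9 with DMSO, 2.27-fold higher. SELENOS, which takes part in clearing misfolded proteins from the endoplasmic reticulum, read 109 with analogue 3 and 199 with DMSO, 1.83-fold lower. SEPHS2, which makes the selenium donor for all of them, read 120 with analogue 3 and 200 with DMSO, 1.67-fold lower. SELENOS and SEPHS2 were picked with their values in view.

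In addition, 6 probe sets were annotated to a member together with another symbol and could not be assigned to 1 gene. Of the 4 annotated to SOD2 and SOD2-OT1, the pair not described above lay under the floor, 1 at 2.84 with analogue 3 and 8.91 with DMSO and the other under 1 on both arrays. The probe set shared by NFE2L2 and CSNK2A1 read 21.7 with analogue 3 and 30.7 with DMSO, both under the floor.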
